A study of Mus musculus with 5 samples.

Results

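The 42 genes described here are interferon-stimulated genes and sensors of foreign nucleic acids, listed by name for what they are known to do. The list was drawn up with earlier results of these data known. Of the 42, 40 have a row among the 21835 genes of the table, while *Mx1* and *Mx2* were not analysed here. Expression was high enough to be tested for 32 of the 40, with a floor of 0.5 CPM to be reached by 2 or more samples (CPM, the reads of a gene scaled to the same total in each library).

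The study asked what miR-200 does in cancer-associated fibroblasts (CAFs), the fibroblasts of a tumor's stroma, and sequenced stranded mRNA libraries of murine lung CAFs in culture. The controls, CAF-vec, were CAFs carrying an empty lentiviral vector and are labelled as a wild-type control (2 samples), and CAF-200 were CAFs with forced expression of the clustered microRNAs miR-200b, miR-200a and miR-429 (3 samples). Both groups were grown in the same serum-containing medium. The labels name a vector with neomycin resistance and a selection with G418, no interferon or other stimulus is named for either group, and nothing says that the samples of a group came from separate transductions or cultures, so *p* values here measure the spread between these samples, which may be technical. Both groups had passed through lentiviral infection and drug selection, and no uninfected CAFs were among the 5 samples. The values of the 2 groups were not listed alike. In the CAF-200 columns every gene was above 0 in all 3 samples (15708 genes) or in none (6127 genes), whereas 1205 genes were above 0 in only 1 CAF-vec sample. A difference in how the groups were processed before deposit therefore cannot be told apart from miR-200 in any fold-change given here, also for genes that share transcript sequence with others, such as *Ifit3*, *Ifit3b* and *Ifitm2*.

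Type I interferons bind a receptor made of IFNAR1 and IFNAR2, whose kinases activate a transcription factor complex that holds STAT2 and IRF9, and this complex turns on antiviral genes through a short promoter motif, the interferon-stimulated response element. Interferons themselves are made when sensors such as RIG-I and MDA5 meet viral RNA or when DNA is found in the cytosol. Fibroblasts are a classical source of interferon beta, and many interferon-stimulated genes keep a low level of transcription without infection.

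The sequences that frame the comparison are those of the overexpressed microRNAs and of some members' promoters. The RefSeq mature sequences are shown 5′ to 3′ with the seed, bases 2 to 8, in capitals, and all lie on the minus strand of chromosome 4 (GRCm38.p6).
miR-200b-3p: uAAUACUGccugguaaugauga
miR-429-3p: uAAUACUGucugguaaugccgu
miR-200a-3p: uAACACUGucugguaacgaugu
miR-200b and miR-429 share 1 seed, whose match in a transcript is CAGTATT, and the match for miR-200a is CAGTGTT. In the longest annotated 3′ UTR of each gene, 8 of the 32 members tested (25%) held a match, beside 30.3% of 12060 genes tested, and the median 3′ UTR was 815 bases long in the members and 1174 bases in all. Among the members that changed, *Stat2* had 1 miR-200a match, at bases 855 to 861 of its 3′ UTR, and *Ifit2* had 1 for miR-200b and miR-429, at bases 331 to 337 (match in capitals).
Stat2 3′ UTR: atttcttttgcaCAGTGTTttgttaacatg
Ifit2 3′ UTR: ttgggcttgtttCAGTATTtgtataaagca
The other members with a match were *Trim25*, *Ifnar1*, *Ifnar2*, *Isg15*, *Gbp7* and *Dtx3l*, and none was found in the 3′ UTRs of *Ifit3*, *Ifit3b*, *Ifitm1*, *Ifitm3* or *Rtp4*.

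RefSeq promoters, from 250 bases before to 50 after the start (GRCm38.p6), were found for 32 of the 40 members. The core of the interferon-stimulated response element, GAAANNGAA on either strand, was in the promoters of 19 of these 32 members (59.4%) and of 9.76% of all 27025 genes with a promoter. A match to the gamma-activated site, TTCNNNGAA, was in 10 of them (31.2%), against 9.55% of all genes, and some matches of both motifs overlap. Aligned at an offset of 32 bases, the promoters of *Ifit3* and *Ifit3b* matched at 201 of 268 bases (75%). Within them, the 82-base stretch that holds the 3 cores of *Ifit3*, from 165 to 84 bases before its start (chr19:34583364-34583445, plus strand), was identical at all 82 bases in *Ifit3b* (chr19:34607760-34607841, plus strand), where it lies 32 bases farther from the start. These stretches are shown with those of *Ifit1* (chr19:34640770-34640823, plus strand) and *Isg15* (chr4:156200866-156200906, minus strand), which also hold 3 cores each, and with the single core of *Stat2* (chr10:128270267-128270295, plus strand), so that genes that did and did not pass the test can be read side by side (cores in capitals, 5′ to 3′ on the gene's strand).
Ifit3: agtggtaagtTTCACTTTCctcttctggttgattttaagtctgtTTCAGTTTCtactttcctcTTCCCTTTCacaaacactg
Ifit3b: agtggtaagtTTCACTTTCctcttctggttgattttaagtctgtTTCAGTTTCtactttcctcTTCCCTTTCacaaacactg
Ifit1: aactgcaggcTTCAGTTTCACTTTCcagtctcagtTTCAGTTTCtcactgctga
Isg15: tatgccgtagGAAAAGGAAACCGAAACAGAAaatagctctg
Stat2: gcaccctggtTTCAGTTTCctttccctag

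Of the 32 members tested, 25 did not pass an adjusted *p* of 0.05 between CAF-vec and CAF-200, and the 7 that did were mostly antiviral effectors, led by *Ifit3* and *Ifit3b*, which are neighbours on chromosome 19. *Ifit3*, *Ifit3b* and *Ifitm1* were lower in CAF-200 past both thresholds, an adjusted *p* below 0.01 together with a change of more than 1 log2 unit (limma on log2(CPM + 0.5), Benjamini-Hochberg adjustment over all 12175 genes tested). In the whole table, 2.35% of genes tested were lower past both thresholds. *Ifit3b* and *Ifitm1* reached the floor of 0.5 CPM only in CAF-vec, the group where they were high, so to be tested at all they had to differ, and the count of 3 is given as a description. With 1 CPM required in every sample, *Ifit3* was the 1 member left past both thresholds. With any 1 CAF-200 sample left out, 0 members were lower past both thresholds, as were 0 of all 12175 genes. In those fits 6 or 7 members were lower at an unadjusted *p* under 0.05, beside 19% to 21% of all genes, and these 3 stayed under an adjusted *p* of 0.05. In the full fit, 11 of the 32 members, *Ifit3b* and *Ifitm1* among them, were lower at an unadjusted *p* under 0.05, beside 27.6% of all genes. No member was higher past both thresholds, against 2.37% of all genes, and 1 was higher at an unadjusted *p* under 0.05 (17.3% of all genes). Without CAF-vec 2 there were 2 past both (5.13% of all genes). At an adjusted *p* under 0.05, 6 members were lower (18.8%, against 18.6% of all genes tested) and 1 was higher (3.12%, against 11.9% of all genes). The share of lower members, which includes *Ifit3b* and *Ifitm1*, was near that of the genes at large. The median log2 fold-change was -0.10 over the members and -0.09 over all genes tested, and 56.2% of the members and 58.3% of all genes had a negative value.

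**Figure D1:**
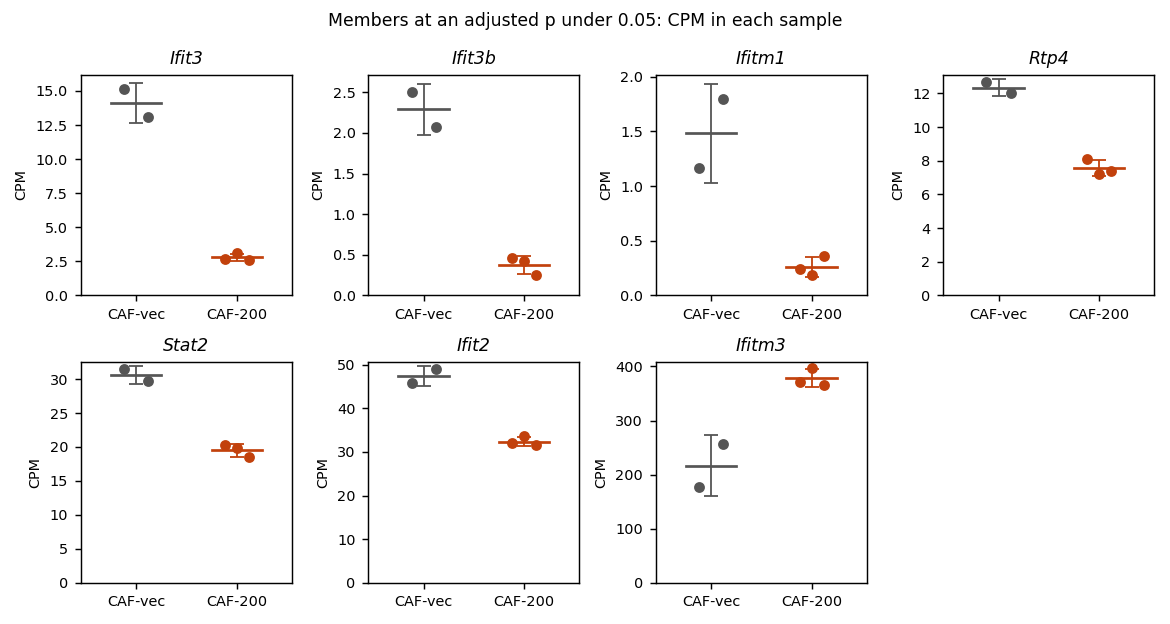
CPM in each sample (points) of the 7 members at an adjusted p under 0.05, with a panel per gene, each on its own axis from 0. Lines are the means and bars the SD of 2 CAF-vec and 3 CAF-200 samples. The groups do not overlap in any panel, *Ifit3*, *Ifit3b* and *Ifitm1* are at 16.6% to 19.8% of their CAF-vec means in CAF-200, and *Ifitm3* is the only gene that is higher.

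The IFIT genes encode tetratricopeptide-repeat proteins that bind viral RNA and are among the genes most strongly induced by interferon. *Ifit3* (ENSMUSG00000074896, chr19:34583531-34588731, GRCm38) had 15.1 and 13.1 CPM in the 2 controls and, with miR-200, 2.67, 3.08 and 2.63 CPM. The means were 14.1 ± 1.44 CPM (SD, n = 2) and 2.79 ± 0.249 CPM (SD, n = 3), so CAF-200 held 19.8% of the CAF-vec level, with wide space between the groups. The log2 fold-change was the lowest among the members with 0.5 or 1 CPM added, and with 0.1 CPM added that of *Ifit3b* was lower (limma, log2 fold-change -2.15 with a standard error of 0.126 and an adjusted *p* of 0.00134). *Ifit3b* (ENSMUSG00000062488, chr19:34607970-34613401) measured 2.51 and 2.07 CPM in the vector controls, compared with 0.461, 0.422 and 0.254 CPM under miR-200 (limma, log2 fold-change -1.67 with a standard error of 0.178 and an adjusted *p* of 0.00387). It too was lower in each CAF-200 sample than in either control, and its log2 fold-change depended on the added value, at -1.25 with 1 CPM added and -2.34 with 0.1 CPM added. *Ifit3* and *Ifit3b* share 521 of their 100-base transcript windows, 31.7% and 27.4% of their lengths, so that the reads of the 2 genes could be split between them in counting. Their sum gave 17.6 and 15.2 CPM for the controls, against 3.13, 3.50 and 2.88 CPM with miR-200, and was also lower in each CAF-200 sample. The sum does not depend on how reads were divided between the 2 genes. It still depends on whether shared reads were kept in each group, which was not tested.

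*Ifit2* (ENSMUSG00000045932, chr19:34550694-34576419), the IFIT gene with the highest CPM, had 45.8 and 49.0 CPM in the 2 controls and, with miR-200, 32, 33.6 and 31.5 CPM. The groups were apart, and *Ifit2* fell in CAF-200 (limma, log2 fold-change -0.54 with a standard error of 0.0855 and an adjusted *p* of 0.00916). Without CAF-200 1, 2 or 3 in turn, its adjusted *p* was 0.0588, 0.0525 and 0.0623. In those fits 5.74%, 4.71% and 3.96% of all genes were lower at an adjusted *p* under 0.05, against 18.6% in the full fit. *Ifit1* was low, with 0.518 and 0.920 CPM without miR-200 and 0.332, 0.541 and 0.343 CPM with it, and the groups overlapped (limma, log2 fold-change -0.42 at an adjusted *p* of 0.188). The 4 IFIT members lie within 99.3 kb of chromosome 19, and all 4 fold-changes were negative.

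The IFITM genes encode small membrane proteins that block the entry of enveloped viruses, and the 3 members, which lie within 55.9 kb of chromosome 7, gave 1 that fell, 1 that rose and 1 that did not pass the test. *Ifitm1* (ENSMUSG00000025491, chr7:140967221-140969825) measured 1.16 and 1.80 CPM in the vector controls, compared with 0.241, 0.184 and 0.361 CPM under miR-200. It was thus lower in each CAF-200 sample (limma, log2 fold-change -1.37 with a standard error of 0.210 and an adjusted *p* of 0.00875), with low values that the added 0.5 CPM compresses (-0.97 with 1 CPM added and -2.13 with 0.1 CPM added), and with array weights its adjusted *p* was 0.0570. *Ifitm3* (ENSMUSG00000025492, chr7:141009586-141010770), the best studied of the family for its part in resistance to influenza virus, gave 177 and 257 CPM for the controls, against 371, 397 and 366 CPM with miR-200. Each CAF-200 sample was above both controls, and *Ifitm3* was the only member that rose (1.74-fold, log2 fold-change 0.83 with a standard error of 0.171, adjusted *p* of 0.0190 by limma). Leaving out CAF-200 1, 2 or 3 gave an adjusted *p* of 0.0735, 0.0824 and 0.0814. In those fits 4.34%, 4.09% and 3.56% of all genes were higher at an adjusted *p* under 0.05, against 11.9% in the full fit.

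*Ifitm2* differed between the controls, with 165 CPM for CAF-vec 1 and 472 CPM for CAF-vec 2, and the values under miR-200 were 359, 416 and 362 CPM. The 2 controls lay on either side of the CAF-200 samples, and the difference between them, 1.51 log2 units, was the largest of any member. Its log2 fold-change was 0.44 (95% confidence interval -0.61 to 1.48, adjusted *p* = 0.454, limma), and it was -0.32 without CAF-vec 1 and 1.19 without CAF-vec 2, so the direction turned with the control that was kept. A fit with a single control takes its spread from the CAF-200 samples alone and assumes that the lone control varies as they do, so the *p* values of such fits leave out the difference between the controls. Of its 100-base windows, 34.9% occur in other annotated genes, most of them in the overlapping *Gm45717*.

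**Figure D2:**
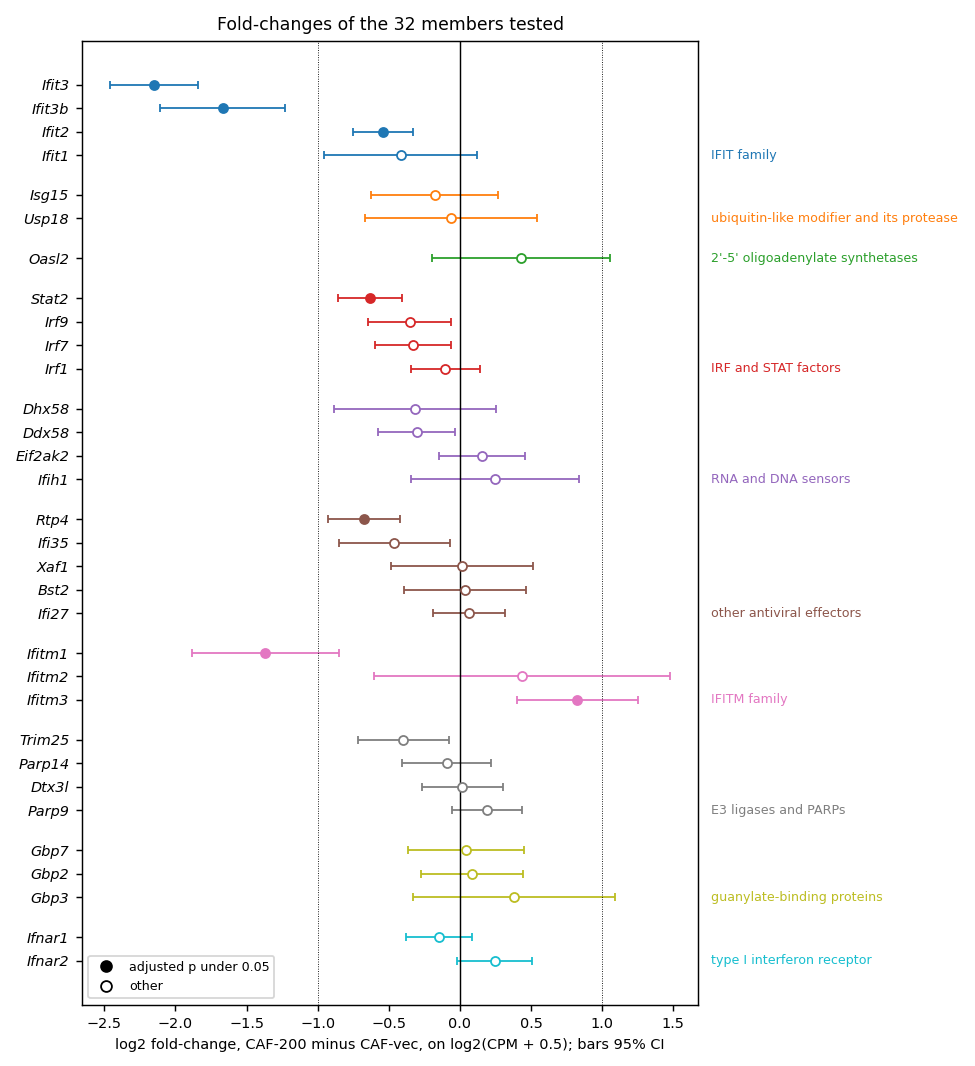
log2 fold-change (horizontal axis, CAF-200 minus CAF-vec, on log2(CPM + 0.5)) of the 32 members tested, grouped by role and ordered within a role, with 95% confidence intervals from limma. Filled points are the 7 members at an adjusted p under 0.05, dotted lines mark a log2 fold-change of 1 in either direction, and the IFIT and IFITM families hold the values farthest from 0.

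Among the members that encode receptors or transcription factors, *Stat2* alone passed the test, beside 18.6% lower and 11.9% higher among all genes tested. *Stat2* (ENSMUSG00000040033, chr10:128270559-128292849), the signal transducer particular to the type I and III interferon pathways, had 31.5 and 29.6 CPM in the 2 controls and, with miR-200, 20.3, 19.8 and 18.5 CPM. It fell in CAF-200 to 63.8% of the CAF-vec mean (limma, log2 fold-change -0.64 with a standard error of 0.0909 and an adjusted *p* of 0.00765), and without CAF-200 3 its adjusted *p* was 0.0519. *Irf9*, its DNA-binding partner, measured 6.32 and 7.63 CPM in the vector controls, compared with 5.27, 5.34 and 5.35 CPM under miR-200 (limma, log2 fold-change -0.35 at an adjusted *p* of 0.0695). *Irf7*, the factor that amplifies interferon production, gave 4.32 and 4.05 CPM for the controls, against 3.29, 3.23 and 3.13 CPM with miR-200 (limma, log2 fold-change -0.33 at an adjusted *p* of 0.0668). For both genes the groups did not overlap, but the difference missed the threshold. Without a variance trend the adjusted *p* of *Irf7* was 0.0416. In single-control fits, with spread from CAF-200 alone, the adjusted *p* was 0.0107 for *Irf9* without CAF-vec 1 and 0.0381 for *Irf7* without CAF-vec 2. *Irf1*, a factor that answers mainly to interferon gamma, had 25.2 and 24.3 CPM in the 2 controls and, with miR-200, 23.0, 24.7 and 21.3 CPM, with overlapping groups (log2 fold-change -0.10, 95% confidence interval -0.35 to 0.14).

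The 2 chains of the type I interferon receptor were present in every sample, between 18.3 and 25 CPM. *Ifnar1* gave 21.9 and 19.6 CPM for the controls, against 18.4, 19.2 and 18.4 CPM with miR-200 (limma, log2 fold-change -0.15, 95% confidence interval -0.38 to 0.08, adjusted *p* of 0.260). *Ifnar2* had 18.3 and 20.6 CPM in the 2 controls and, with miR-200, 25, 22.5 and 21.9 CPM (limma, log2 fold-change 0.25, 95% confidence interval -0.02 to 0.51, adjusted *p* of 0.131). The groups did not overlap for either chain, lower for *Ifnar1* and higher for *Ifnar2*, while both confidence intervals included 0. In the single-control fit without CAF-vec 2, with spread from CAF-200 alone, the adjusted *p* was 0.0437 and 0.0211.

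No sensor passed the test, and 1 of the 4 tested, *Ddx58*, was lower at an unadjusted *p* under 0.05. At that level, 27.6% of all genes tested were lower. *Ddx58*, which encodes the RNA sensor RIG-I, measured 14.1 and 16.9 CPM in the vector controls, compared with 12.2, 12.4 and 12.6 CPM under miR-200 (limma, log2 fold-change -0.30 at an adjusted *p* of 0.0837). The single-control fits gave a log2 fold-change of -0.43 without CAF-vec 1 and -0.18 without CAF-vec 2. *Ifih1*, which encodes MDA5, a sensor of long double-stranded RNA, gave 2.55 and 1.59 CPM for the controls, against 2.71, 2.96 and 1.90 CPM with miR-200 (log2 fold-change 0.24). *Dhx58*, which encodes LGP2, the regulator of both, had 2.39 and 2.57 CPM in the 2 controls and, with miR-200, 2.51, 1.99 and 1.32 CPM (log2 fold-change -0.32). *Ddx58* was lower in every CAF-200 sample, whereas the groups overlapped for the other two. *Eif2ak2*, the double-stranded RNA-activated kinase PKR that halts translation, measured 19.4 and 24.8 CPM in the vector controls, compared with 24.3, 24.8 and 24.3 CPM under miR-200 (limma, log2 fold-change 0.15 at an adjusted *p* of 0.368). In single-control fits its log2 fold-change was -0.02 without CAF-vec 1 and 0.33 without CAF-vec 2, so the direction turned. *Zbp1*, a sensor of Z-form nucleic acids, was too low to be tested, listed at 0 for both controls and between 0.0106 and 0.0209 CPM with miR-200.

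Of the other antiviral effectors, 1 of 5 tested fell, beside 18.6% lower among all genes tested. *Rtp4* (ENSMUSG00000033355, chr16:23520291-23614222), a chaperone of receptor transport that also restricts viruses, gave 12.7 and 12 CPM for the controls, against 8.10, 7.19 and 7.40 CPM with miR-200. It fell to 61.3% of the CAF-vec mean with groups apart (limma, log2 fold-change -0.67 with a standard error of 0.103 and an adjusted *p* of 0.00869), and the adjusted *p* was 0.0537 without CAF-200 2, 0.0557 without CAF-200 3 and 0.0638 with array weights. Of its 100-base windows, 11.2% occur in *Gm45338*. *Ifi27*, the third highest member in CAF-vec and a small protein strongly induced by interferon, had 100 and 88.8 CPM in the 2 controls and, with miR-200, 93.4, 105 and 98.2 CPM. The groups overlapped, with a log2 fold-change of 0.06 (95% confidence interval -0.19 to 0.31). *Ifi35*, which encodes a binding partner of NMI, had a log2 fold-change of -0.46 (limma, adjusted *p* of 0.0739), which was -0.28 without CAF-vec 1 and -0.64 in the single-control fit without CAF-vec 2 (adjusted *p* of 0.00394). The log2 fold-changes of *Bst2*, the tether of budding virions known as tetherin, and of *Xaf1*, a pro-apoptotic factor, were 0.03 and 0.01.

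*Isg15*, the ubiquitin-like modifier that is conjugated to proteins after interferon, gave 5.02 and 4.29 CPM for the controls, against 4.36, 4.71 and 3.22 CPM with miR-200 (log2 fold-change -0.18, 95% confidence interval -0.62 to 0.27), and the groups overlapped. *Usp18*, the protease that removes it and restrains the receptor, had a log2 fold-change of -0.06. The E3 ligases and PARPs ranged from -0.40 for *Trim25* (limma, adjusted *p* of 0.0669), which ubiquitinates RIG-I, to 0.19 for *Parp9*, with *Parp14* at -0.09 and *Dtx3l*, the ligase partner of PARP9, at 0.02. The 3 guanylate-binding proteins, GTPases that attack the vacuoles of intracellular pathogens, ranged from 0.04 for *Gbp7* to 0.38 for *Gbp3*, with *Gbp2* at 0.09. *Oasl2*, which encodes a 2'-5' oligoadenylate synthetase-like protein, was the only gene of its family among the members that could be tested. Its log2 fold-change was 0.43 (limma, adjusted *p* of 0.236). *Oas1c*, a gene of this family outside the members, was tested too, with a log2 fold-change of 0.43 (limma, adjusted *p* of 0.327). *Oasl2* reached the floor of 0.5 CPM only in CAF-200. None of these 10 members passed an adjusted *p* of 0.05, beside 18.6% lower and 11.9% higher among all genes tested. Only 1, *Trim25*, was lower at an unadjusted *p* under 0.05, beside 27.6% of all genes. The log2 fold-change of *Trim25* was -0.23 without CAF-vec 1 and -0.56 in the single-control fit without CAF-vec 2 (adjusted *p* of 0.00248). *Parp9* and *Dtx3l* overlap on opposite strands, as do *Irf7* and *Phrf1*, and *Irf9* overlaps *Rnf31* on the same strand. Whether strand was used in counting is not given in the sources used here, so reads of such pairs could be shared.

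Of the 32 members tested, 12 had all CAF-200 values below both CAF-vec values (37.5%, against 37.3% of all genes tested), and 3 had all of them above (9.38%, against 24.3%). The count of separated, lower members was therefore at the level of the whole table.

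The 8 members too low to be tested were *Oas1a*, *Oas2*, *Oas3*, *Oasl1*, *Rsad2*, *Ifi44*, *Cmpk2* and *Zbp1*, which include the synthetases that activate RNase L and the antiviral enzyme viperin (*Rsad2*). The highest value among them in any sample was 0.409 CPM, for *Cmpk2* in CAF-200 2. *Oas1a*, *Rsad2* and *Zbp1* were listed at 0 for both controls, and *Oas2* at 0 for every CAF-200 sample. Since low values were listed differently in the 2 groups, no fold is given for these genes.

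**Figure D3:**
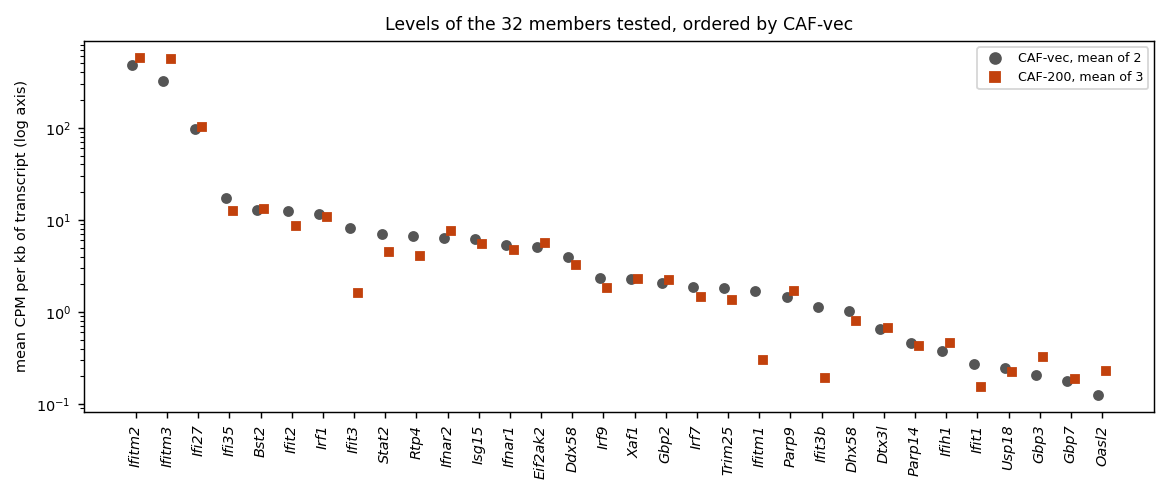
Mean CPM per kb of the longest coding transcript (vertical log axis) of the 32 members tested, in CAF-vec (circles, 2 samples) and CAF-200 (squares, 3 samples), ordered by CAF-vec. *Ifitm2*, *Ifitm3* and *Ifi27* stand above the others, and *Ifit3*, *Ifitm1* and *Ifit3b* show the widest gaps between the groups.

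Per length of transcript, the members spanned a wide range of levels. In CAF-vec, *Ifitm2* had a mean level of 486 CPM per kb, *Ifitm3* of 320 CPM per kb and *Ifi27* of 96.8 CPM per kb, and the fourth, *Ifi35*, had 17.5 CPM per kb. *Ifitm2* and *Ifitm3* could not be ordered, since their values in CAF-vec overlapped. *Ifit3* was the eighth of the 40 in CAF-vec, at 8.09 CPM per kb, and the 19th in CAF-200, at 1.60 CPM per kb, and *Ifitm1* went from rank 21 to rank 27. *Isg15*, at 6.16 CPM per kb in CAF-vec and 5.42 CPM per kb in CAF-200, stayed among the 12 highest in both groups.

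Neither the promoter motif nor a seed match was shared by all of the members that changed. Of the 15 tested members with an interferon-stimulated response element core in a promoter, 3 fell (*Ifit3*, *Ifit3b* and *Stat2*) and 1 rose (*Ifitm3*), and their median log2 fold-change was 0.03. Of the 11 with a promoter and no core, 2 fell (*Ifit2* and *Ifitm1*), with a median of -0.15, and *Rtp4* had no promoter entry. Of the 8 members with a miR-200 seed match in the 3′ UTR, *Stat2* and *Ifit2* fell, with a median over the 8 of -0.16, and of the 24 without one, 4 fell and 1 rose, with a median of -0.08. The 2 matches in the 3′ UTR of *Ifnar2* stood beside a positive fold-change. These are counts only, with no test, beside 18.6% lower and 11.9% higher among all genes tested, and they include *Ifit3b* and *Ifitm1*, which reached the floor of 0.5 CPM only in CAF-vec.

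**Figure D4:**
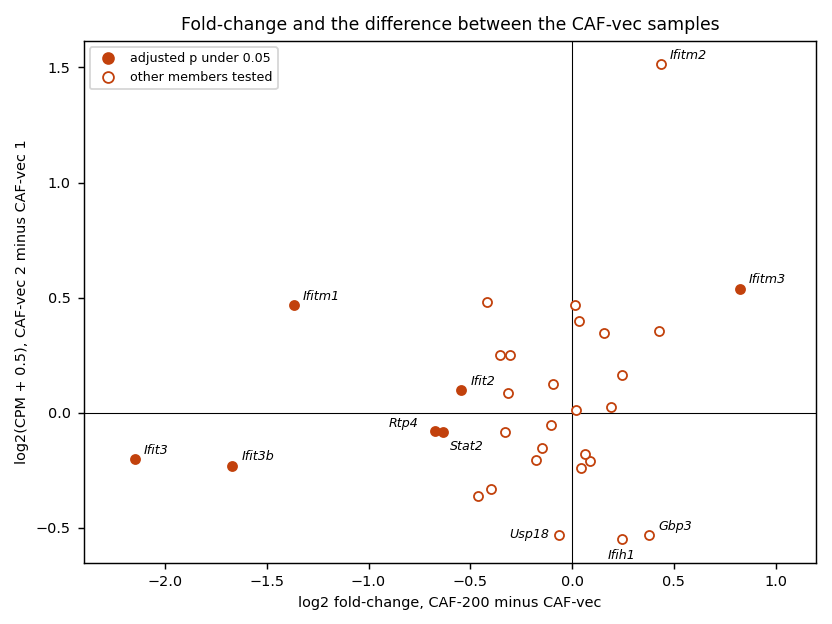
log2 fold-change of the 32 members tested (horizontal axis, CAF-200 minus CAF-vec) against the difference between the 2 controls (vertical axis, log2(CPM + 0.5) of CAF-vec 2 minus CAF-vec 1). Filled points are at an adjusted p under 0.05. *Ifit3*, *Ifit3b* and *Ifitm1* changed by far more than the controls differ, and *Ifitm2* shows the opposite.

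The controls differed from each other more than the CAF-200 samples did. Over all genes tested, the log2 difference had an SD of 0.490 from control to control, and of 0.192 to 0.204 for pairs within CAF-200. Among the members, the difference between the controls was larger than the fold-change for 14 of 32 and was above 0.5 log2 units for 5 (*Ifitm2*, *Ifih1*, *Ifitm3*, *Gbp3* and *Usp18*). Without CAF-vec 2, 10 members were lower and 4 higher at an adjusted *p* under 0.05, and without CAF-vec 1, 9 were lower and 1 higher, and in both fits the 7 members that had changed in the full comparison were included. Among all genes, 39.7% were lower and 24.9% higher in the fit without CAF-vec 2, and 27% and 20.1% in the fit without CAF-vec 1. With 1 control the spread came from CAF-200 alone, the less variable group, so these counts do not weigh the difference between the controls.

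The cells carried fibroblast transcripts and little of other types. Of 10 fibroblast markers, 9 were tested, and their summed level came to 14150 CPM for CAF-vec 1 and 7457 CPM for CAF-vec 2, with CAF-200 between 6609 and 7302 CPM. *Lum*, *Dcn* and *Thy1* rose, with log2 fold-changes of 2.82, 2.75 and 1.46, and the other 6 did not pass the test and ranged from -0.91 for *Col1a1* to 1.02 for *Col3a1*, with a median of -0.20 over the 9. Of 17 markers of macrophages and other leukocytes, which express many of the members, 9 were at 0 in all samples, among them *Adgre1*, *C1qa* and *Tyrobp*, 3 were tested and none passed, and their sum ran from 11.6 to 14.0 CPM without miR-200 and from 8.17 to 10.2 CPM with it. Summed epithelial markers were 0.977 to 2.10 CPM and endothelial markers 0.167 to 1.06 CPM in all samples. The leukocyte sum was lower in CAF-200, as *Ifit3* was, and its part in the members' values was not tested. *Zeb1*, a known miR-200 target used to check the labels, measured 43.5 and 50.8 CPM in the vector controls, compared with 37.8, 37.5 and 34.1 CPM under miR-200 (limma, log2 fold-change -0.36 at an adjusted *p* of 0.0504), and for *Zeb2* the groups overlapped. In bulk samples, fewer cells that express a gene and less RNA per cell cannot be told apart.

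The other genes of the pathway were read from 5 lists of 169 genes, of which 165 had a row and 106 were tested. At an adjusted *p* under 0.05, 16 were lower (15.1%, against 18.6% of all genes tested) and 12 higher (11.3%, against 11.9%). Past both thresholds, 1 was lower (0.943%, against 2.35%) and 4 were higher (3.77%, against 2.37%), and 2 of these 4, *Slfn2* and *Ifi27l2b*, reached the floor of 0.5 CPM only in CAF-200, where they were high. With 1 CPM required in every sample, 1 was higher. Their median log2 fold-change was -0.06.

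**Figure D5:**
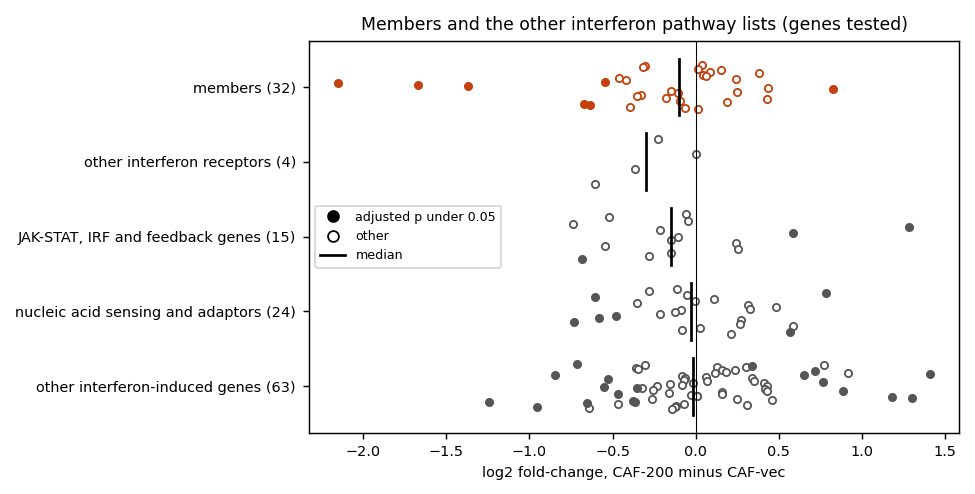
log2 fold-change (horizontal axis, CAF-200 minus CAF-vec) of each gene tested among the members and in 4 further lists of interferon pathway genes, with the number tested in brackets. Filled points are at an adjusted p under 0.05 and vertical bars are medians, which lie between -0.30 and -0.02. In each list with changed genes these fall on both sides of 0.

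The ligands were hardly detected. Of 21 interferon genes, 20 were listed at 0 in all 5 samples, *Ifnb1* among them, and the remaining one, *Ifnz*, was at 0.0728 to 0.211 CPM. None of the 4 other receptor chains passed the test. Only 1 of them (*Ifngr1*) was lower at an unadjusted *p* under 0.05, beside 27.6% of all genes tested. The log2 fold-changes of the 4 ranged from -0.61 for *Il10rb* to 0.0029 for *Ifngr2*. Among the 15 JAK-STAT, IRF and feedback genes tested, *Tyk2*, the kinase bound to IFNAR1, gave 15.4 and 15.6 CPM for the controls, against 9.94, 9.20 and 9.17 CPM with miR-200, and fell (limma, log2 fold-change -0.69 at an adjusted *p* of 0.00679). *Irf5*, a factor of Toll-like receptor signaling, was higher by a log2 fold-change of 1.28 (limma, adjusted *p* of 0.00700), and *Jak2*, a kinase of the interferon gamma receptor, by 0.59 (limma, adjusted *p* of 0.00883).

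Among the 24 genes of nucleic acid sensing tested, 4 were lower (16.7%, against 18.6% of all genes tested) and 2 higher (8.33%, against 11.9%) at an adjusted *p* under 0.05. *Tlr4*, the receptor for lipopolysaccharide, fell by 0.73 on the log2 scale, *Ikbke* by 0.60 and *Ticam1*, the adaptor TRIF, by 0.58, and *Tbk1*, the kinase of IRF3, was the fourth. *Cgas*, the sensor of cytosolic DNA, had 2.62 and 3.37 CPM in the 2 controls and, with miR-200, 5.26, 5.35 and 5.83 CPM and rose, with a log2 fold-change of 0.78 (limma, adjusted *p* of 0.0122). *Trex1*, the nuclease that removes such DNA, rose by 0.57 (limma, adjusted *p* of 0.0395).

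The 63 other interferon-induced genes tested gave 11 lower (17.5%, against 18.6% of all genes tested) and 8 higher (12.7%, against 11.9%) at an adjusted *p* under 0.05, shares near those of the whole table. *Tmem140* fell by 1.24 on the log2 scale, from 20.9 and 16.9 CPM without miR-200 to 7.33, 7.62 and 8.01 CPM with it. *Uba7*, the enzyme that activates ISG15 for conjugation, fell by 0.95, and *Ifit1bl1*, a further IFIT gene, fell by 0.85 from values under 1 CPM and reached the floor of 0.5 CPM only in CAF-vec. Among the rises, *Slfn9* went from 17.0 and 16.7 CPM to 41.3, 43.4 and 41.9 CPM (limma, log2 fold-change 1.30 at an adjusted *p* of 0.00145). *Ifi27l2b* and *Slfn2* are counted among the 8 but were tested only through their values in CAF-200, and the group and the handling of low values cannot be told apart for them. *Ifi27l2b* reached no more than 0.0893 CPM in the controls and 0.743 to 1.07 CPM under miR-200, and *Slfn2*, listed at 0 for both controls, was between 0.495 and 0.741 CPM under miR-200.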

How the data were processed

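RNA was sequenced from 2 CAF-vec and 3 CAF-200 samples. The authors deposited CPM values in a table named for TMM scaling, and per the labels the processing notes name FastQC, cutadapt, Trimmomatic, STAR, RSEM and edgeR, with builds GRCm38 and mm10. Columns summed to 999956 to 1000111 CPM, whole counts could not be recovered, no count test was possible and sequencing depth is unknown.

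The 12175 genes that reached 0.5 CPM in 2 or more samples were fitted by limma 3.58.1 (R 4.3.3, lmFit, eBayes with a variance trend) as log2(CPM + 0.5), and *p* values were adjusted by Benjamini-Hochberg. The fit was tested on simulated data. Members named with every value passed an adjusted *p* of 0.05 or a log2 fold-change of 1, were among the 3 highest in CAF-vec, or are receptors, IRFs, STATs or sensors, *Ifit1* and *Isg15* were added after their values were seen, and of each pathway list up to 3 of the largest changes each way among genes at an adjusted *p* under 0.05 were named. Members and lists were chosen with earlier results of these data known. Transcripts and coordinates are from GENCODE M21 (GRCm38), and promoters and microRNAs from RefSeq (GRCm38.p6). Alternatives were other pseudocounts, filters, scalings, weights and thresholds, a replicate block and each sample left out. The paper's methods and the labels differ on the vector's resistance gene, the RNA kit and the number of CAF-vec samples, and the labels were followed. One gene of the pathway is not reported here.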

Additional observations from a re-analysis of the deposited data

How the results depend on the processing

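The 7 members past an adjusted *p* of 0.05 kept their direction under the 14 alternatives that could be fitted, except that *Ifit3b* and *Ifitm1* were not tested at 1 CPM in every sample. *Ifit3* also kept that adjusted *p* under all 14. Members lower past both thresholds numbered 3, and 2 with a pseudocount of 1 CPM, with no filter and after centring on medians. The count was 1 when every sample had to reach 1 CPM, with array weights and with the replicate block. At a log2 fold-change beyond 0.5 it was 6. With any 1 CAF-200 sample left out it was 0, as it was for all 12175 genes. Members higher past both numbered 0 to 2 with 1 sample left out. At an adjusted *p* under 0.05, 6 were lower, 7 without a variance trend (*Irf7* added), 3 with the replicate block and 3 to 10 with 1 sample left out, and 1 was higher, 0 to 4 with 1 left out. Other pathway genes lower past both numbered 1, and 0 with array weights or the replicate block, 2 at a log2 fold-change beyond 0.5 and 0 to 4 with 1 left out. Those higher numbered 4, and 5 at a pseudocount of 0.1 CPM, 3 with no filter or quantile normalization, and 6 at a log2 fold-change beyond 0.5. They numbered 2 at a pseudocount of 1 CPM, and 1 at 1 CPM in every sample, with array weights or with the replicate block. With any 1 CAF-200 sample left out they numbered 0. In those fits 3.96% to 5.74% of all genes were lower at an adjusted *p* under 0.05, against 18.6% in the full fit. The shares of all genes that were higher were 3.56% to 4.34%, against 11.9% in the full fit. Without 1 control the lone CAF-vec sample was assumed to vary like the CAF-200 samples. The cause was not tested.

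Of the 25 members that did not pass the test, the log2 fold-change of 11 changed sign under an alternative. *Usp18* was 0.034 and *Parp14* 0.00392 after centring on medians, and with the replicate block *Gbp7* was -0.00878 and *Dtx3l* -0.033. With 1 sample left out, the range was -0.019 to 0.33 for *Eif2ak2*, -0.029 to 0.52 for *Ifih1*, -0.020 to 0.19 for *Gbp2*, -0.33 to 0.20 for *Usp18*, -0.076 to 0.17 for *Gbp7*, -0.22 to 0.25 for *Xaf1*, -0.16 to 0.23 for *Bst2*, -0.033 to 0.043 for *Dtx3l*, -0.32 to 1.19 for *Ifitm2* and -0.024 to 0.15 for *Ifi27*. The replicate numbers did not count as pairs, since only 2 are shared, with correlations of 0.249 and 0.134. Replicate 3 exists only in CAF-200, so the replicate block gave the same fold-changes as leaving out CAF-200 3. The median member was at -0.05 after quantile normalization and -0.00190 after centring, where the median of all genes was -0.02 and 0.00268. The count test was not run.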
